A study of Mus musculus with 8 samples.

Results

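Granulocyte-macrophage progenitors (GMP) were compared with LSK cells sorted from the bone marrow of mice lacking atypical chemokine receptor 1 (ACKR1). The arrays were chosen by their titles, and they are 4 of the 8 arrays in the study: 2 of deficient GMP and 2 of deficient LSK. LSK cells were gated as lineage-negative, Sca1-positive and cKit-positive. GMP cells were gated as lineage-negative, Sca1-negative, cKit-positive, CD34-positive and CD16/32-positive. All mice were females of 12 weeks on a C57/Bl6 background, housed free of specific pathogens. The deficient line came from more than 12 backcross generations to C57Bl/6J and was bred from heterozygotes, and the remaining 4 arrays, used here for reference, held the same 2 populations of wild-type littermates. The labels name no allele, promoter or Cre driver, and leave unsaid whether an array held 1 animal or a pool, so the p-values below measure only how far these samples spread, and that spread may be technical.

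LSK cells hold the haematopoietic stem cells and multipotent progenitors of the marrow, and GMP are their committed descendants, which make neutrophils and monocytes. As progenitors commit, they shut down stem cell regulators and early lymphoid genes, and they begin to make the serine proteases and peroxidase that are packed into the primary (azurophil) granules. ACKR1 binds inflammatory chemokines without G protein signalling and is best known from red-cell precursors and venular endothelium.

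Levels are given as log2 signal minus the array's own 75th percentile, and differences are GMP minus LSK on that scale. On deficient LSK replicate 2 the 75th percentile lay at an intensity of 24.6, against 197 to 472 on the other deficient arrays, and 34.3% of its spots were well above background, against 62.5% to 69.7%. On that weak array 13154 of the 28078 features tested (46.8%) were not well above background, which holds for any value there under −1.44 and for some values above it. Across features the LSK pair correlated at r = 0.78 and the GMP pair at r = 0.898, against 0.948 and 0.976 for the wild-type pairs, and the median SD between replicates was 0.91 in deficient LSK and 0.65 in deficient GMP. LSK arrays lay in slide rows 1 and 3 and GMP arrays in rows 2 and 4, so row and population cannot be told apart. The deficient arrays all lay in slide column 1 and the wild-type arrays all in column 2. Column and genotype therefore cannot be told apart in any comparison of the genotypes below.

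By limma with Benjamini-Hochberg adjustment, 0 features were called higher in deficient GMP (0%) and 0 lower (0%), with a smallest adjusted p of 0.0942. At an unadjusted p under 0.05 there were 2699 higher (9.61%) and 1998 lower (7.12%). Without the weak LSK array 0 were again called in either direction, with a smallest adjusted p of 0.145 and 2878 features (10.3%) at an unadjusted p under 0.05. No difference between the deficient populations given below therefore passed the test in the 8-array fit, and each is reported as a value. Other settings did make calls: normexp background correction gave 787 higher and 61 lower, a fit of the 4 deficient arrays alone gave 19 and 111, and the fit without LSK replicate 1, with the weak array as the only LSK array, gave 2144 and 2112. As a description free of any model, a feature is called separated here where both arrays of one population lay at least 1 log2 unit beyond both arrays of the other. In deficient marrow 1361 features were separated with GMP higher (4.85%) and 1389 with GMP lower (4.95%), so 49.5% of the separated features were higher. In wild-type marrow the shares were 4.59% and 6.53%. The split in deficient marrow depends on the scaling and on dim probes. The higher share was 75.3% with arrays scaled to their medians, 78% after normexp correction and 51.7% under quantile normalization. With only probes well above background on all 4 deficient arrays, 1082 features were separated higher and 517 lower (67.7% higher). Among the 15852 features with a symbol, from which the gene lists below are drawn, 5.56% were separated with GMP higher and 4.07% with GMP lower.

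The 12 genes with the smallest p-values on the GMP side included markers of early granulocytes. Ctsg, which encodes the primary granule protease cathepsin G, read 4.70 and 3.35 on the LSK arrays and 10.34 and 9.04 on the GMP arrays. Its difference was 5.66 (SE 0.79, limma adjusted p = 0.0942), a 50.7-fold higher mean. Ms4a3, a membrane protein gene of granulocyte-monocyte progenitors, read 1.59 and 1.31 in LSK and 7.99 and 6.75 in GMP. Both GMP arrays lay above both LSK arrays for these genes, by more than the gap between the replicates of either population. Ly86, which encodes the RP105 partner MD-1, had a difference of 5.59, Mt1, a metallothionein, 4.62, and Lgals1, galectin-1, 4.70. The largest of the 12 genes was Tctex1d1, a dynein light chain relative, with 6.17. The other 6 were 0610040J01Rik, Dmkn, Cpa3, Apba1, Ap3s1 and Ly6c1, with differences from 3.70 to 5.55. All 12 were separated in deficient and in wild-type marrow, and their adjusted p lay between 0.0942 and 0.14. Tctex1d1, 0610040J01Rik, Dmkn, Cpa3 and Apba1 were not well above background on the weak LSK array. Without that array the differences of the 12 ran from 3.48 for Ly6c1 to 6.68 for Tctex1d1, with 4.99 for Ctsg.

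On the LSK side the 12 genes with the smallest p-values included homeobox and guidance genes. Hoxa10, a homeobox factor of stem and progenitor cells, read −1.52 and 0.26 on the LSK arrays and −6.11 and −6.30 on the GMP arrays, where it was not well above background. It was at least 22.8-fold lower in GMP (measured difference −5.57, SE 0.73, limma adjusted p = 0.0942); such a bound sets the LSK mean against the higher of the probe's own signal and the lowest signal well above background on each GMP array. Against LSK replicate 1 alone the bound for Hoxa10 was 12.3-fold. Nkx2-3, another homeobox gene, had a difference of −5.36, with 1 of its GMP arrays not well above background. Sema3d, a secreted semaphorin, was at least 32.2-fold lower, Sgsm1 at least 25.8-fold, Aebp1 at least 19.3-fold and Wfdc2 at least 18.7-fold. Against LSK replicate 1 alone these bounds were 28.5-fold, 47.4-fold, 14.8-fold and 13-fold. Dntt, the terminal transferase of lymphoid progenitors, read 6.38 and 6.08 in LSK and 2.71 and 0.87 in GMP, with a difference of −4.44. Il17rc had −4.27 and Myl10 −4.73, and 1 of the 2 GMP arrays was not well above background for either; with that array at its floor Myl10 had −3.95. Yap1, a Hippo pathway coactivator, was at least 4.98-fold lower and Plxna4, a semaphorin receptor, at least 4.14-fold, taken for Plxna4 from LSK replicate 1 alone. For Yap1, Plxna4 and Sgsm1 the weak LSK array was not well above background. The remaining gene, the odorant receptor Olfr71, was at least 36-fold lower in deficient GMP, but in wild type it read −4.34 and −7.92 in LSK and −7.11 on both GMP arrays. It was the exception of the 12, as the other 11 were separated in the same direction in wild-type marrow.

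**Figure D1:**
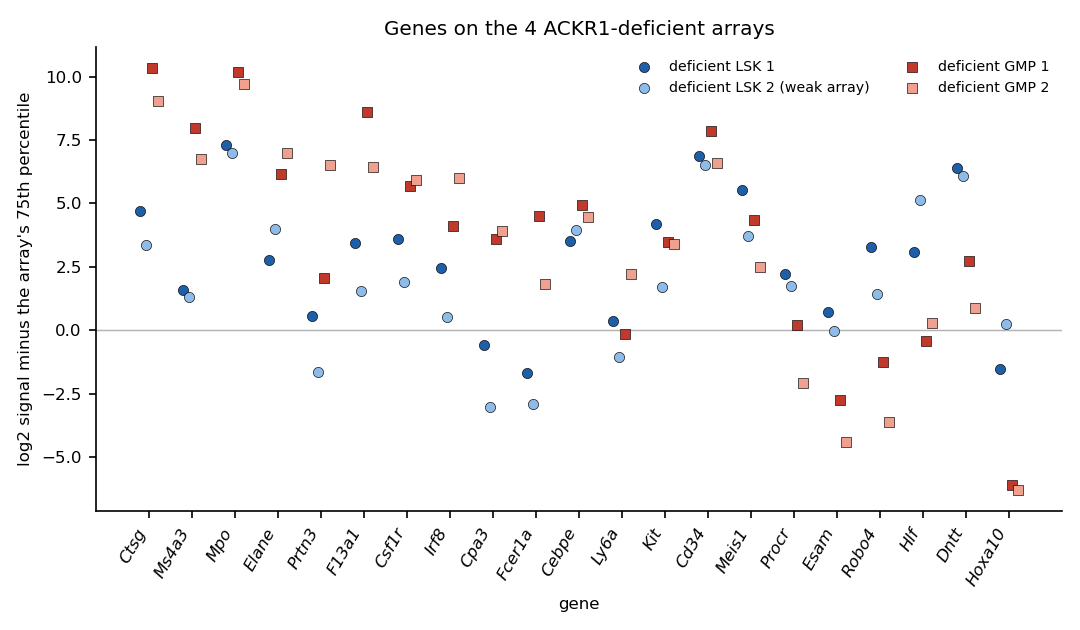
Log2 signal minus the array's 75th percentile (vertical axis) of 21 genes on the 4 ACKR1-deficient arrays. Circles are LSK and squares GMP, with replicate 2 pale, and the pale circle is the weak array. Granule and basophil genes at the left lie higher on the GMP arrays, as with Ctsg at 10.34 and 9.04 against 4.70 and 3.35. Ly6a, Kit, Cd34 and Meis1 overlap, and the stem and lymphoid genes to the right of Meis1 lie lower on the GMP arrays.

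Primary granule genes lay higher in GMP. All 24 listed genes passed the filter on dim probes, 22 of 24 had a difference above 0, and 12 of 24 (50%) were separated with GMP higher, against 4.85% of all features. Their median difference was 1.93, beside −0.07 for all features and 0.27 for features with a symbol. It was 1.37 without the weak array and 2.03 in wild type. The list also held membrane protein genes, among them Ms4a3 with 5.92, its largest difference, and Anpep with −2.44. Mpo, which encodes myeloperoxidase, read 7.32 and 6.98 in LSK and 10.20 and 9.73 in GMP, a difference of 2.82 (SE 0.64, limma adjusted p = 0.14). The groups did not overlap, and LSK cells already carried Mpo at a high level. Elane, neutrophil elastase, read 2.76 and 3.98 in LSK and 6.18 and 6.99 in GMP, a difference of 3.22 beside 7.0 in wild type. Prtn3, which encodes proteinase 3, read 0.56 and −1.63 in LSK and 2.06 and 6.53 in GMP. Its GMP arrays lay farther from each other than the lower of them lay from LSK, and the difference of 4.83 had an SE of 1.41. On the weak array Prtn3 was not well above background, and without that array its difference was 3.73. Leaving 1 array out in turn kept the median of the list between 1.37 and 2.45.

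The promoters of Mpo, Elane, Ctsg and Ms4a3 are shown because all 4 genes were separated with GMP higher. Granule genes, here Mpo, Elane and Ctsg, are also textbook targets of the factors PU.1, C/EBP, MYB and RUNX1. Each run is 300 bases, from 250 before to 50 after the annotated start, taken from RefSeq on GRCm38.p6. Capitals mark matches, on either strand, to 6 motifs. The motif GAGGAA is bound by ETS factors such as PU.1, and C/EBP factors bind TTGCNNAA. The RUNX motif searched was TGTGGT. The GATA motif searched was AGATAA. For MYB the letters were TAACNG. The CCAAT box was searched by its own letters.
Mpo, chr11:87793534-87793833, plus strand: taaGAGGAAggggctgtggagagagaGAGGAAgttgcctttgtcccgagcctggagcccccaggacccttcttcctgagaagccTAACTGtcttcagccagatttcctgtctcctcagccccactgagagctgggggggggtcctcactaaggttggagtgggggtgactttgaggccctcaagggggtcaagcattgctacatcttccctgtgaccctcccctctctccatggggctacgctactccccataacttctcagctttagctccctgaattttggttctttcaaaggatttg
Elane, chr10:79886062-79886361, plus strand: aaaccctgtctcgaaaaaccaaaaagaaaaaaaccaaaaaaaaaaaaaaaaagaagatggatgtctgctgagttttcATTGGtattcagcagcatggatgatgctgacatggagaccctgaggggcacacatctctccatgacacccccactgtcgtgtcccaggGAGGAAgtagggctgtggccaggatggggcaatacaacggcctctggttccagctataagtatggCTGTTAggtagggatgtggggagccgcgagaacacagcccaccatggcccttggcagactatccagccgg
Ctsg, chr14:56102525-56102824, minus strand: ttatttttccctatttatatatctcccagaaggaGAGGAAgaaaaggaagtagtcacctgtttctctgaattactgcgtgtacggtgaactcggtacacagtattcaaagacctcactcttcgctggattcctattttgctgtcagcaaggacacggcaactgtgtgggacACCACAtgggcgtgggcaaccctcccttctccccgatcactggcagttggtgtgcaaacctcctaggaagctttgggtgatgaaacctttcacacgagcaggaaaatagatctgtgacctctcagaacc
Ms4a3, chr19:11640802-11641101, minus strand: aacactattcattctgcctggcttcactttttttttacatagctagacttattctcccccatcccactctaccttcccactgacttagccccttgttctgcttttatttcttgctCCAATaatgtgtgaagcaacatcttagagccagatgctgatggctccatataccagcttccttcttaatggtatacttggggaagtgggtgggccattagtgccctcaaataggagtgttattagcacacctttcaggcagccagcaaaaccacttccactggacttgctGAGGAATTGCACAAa
Every one of the 4 windows held GAGGAA, which 28.3% of the 32851 windows of this length in the table hold. Mpo and Elane held TAACNG (23.3% of all windows), Ctsg held TGTGGT on the opposite strand (16.8%), and Ms4a3 held TTGCNNAA (10.8%) directly after GAGGAA. A match describes these letters alone and is not evidence that a factor binds.

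Regulators of the granulocyte-monocyte fate had 2 separated members, both with GMP higher. The list of granulocyte-monocyte transcription factors had 19 of 20 members tested, a median of 0.97 (0.60 without the weak array, 0.30 in wild type) and 10.5% of its members separated, against 4.85% of all features, but its median turned to −0.23 without both the weak array and GMP replicate 1. Irf8, which directs monocyte and dendritic fates, read 2.47 and 0.50 in LSK and 4.11 and 5.99 in GMP. Its difference of 3.56 (2.58 without the weak array) separated the populations. Cebpd had 2.97, Cebpa, the factor that GMP formation needs, 2.08, and Gfi1, a repressor that neutrophil differentiation needs, 2.49, and none of these 3 was separated. Without the weak array Cebpd had 1.72 and Gfi1 0.93, and Gfi1 turned to −0.23 without both the weak array and GMP replicate 1. Cebpe, a factor of terminal granulocyte differentiation, read 3.52 and 3.94 in LSK and 4.95 and 4.46 in GMP. Its difference was 0.97, which turned to −0.06 under quantile normalization, and it was 6.08 in wild type, where LSK arrays read −1.40 and −1.03 and GMP arrays 5.04 and 4.70. Spi1, which encodes PU.1, read −5.84 on one GMP array, where it was not well above background, and 0.01 on the other, so its difference of −0.10 has no direction, and it turned positive under median scaling, quantile normalization and normexp correction.

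Receptors gave a mixed picture. Csf1r, the receptor for macrophage colony-stimulating factor, read 3.60 and 1.89 in LSK and 5.68 and 5.91 in GMP. Its difference was 3.04 at its brightest probe (2.19 without the weak array), while 1 of its other 2 probes had −0.68. Csf3r, the receptor for granulocyte colony-stimulating factor, read 6.55 and 8.62 in LSK and 6.82 and 6.01 in GMP and overlapped. Among 24 neutrophil surface receptors 2 were separated with GMP higher (8.33%) and 1 lower (4.17%), against 4.85% and 4.95% of all features. Trem3, an activating receptor of myeloid cells, had 3.40 (2.25 without the weak array), while Itgam, which encodes CD11b, was separated with LSK higher at its brightest probe, at 6.30 and 8.16 against 4.01 and 4.73, and 1 of its other 2 probes had the opposite sign (0.71). The NADPH oxidase of phagocytes had 7 of 7 members above 0 and a median of 1.32 (0.38 without the weak array). Its 2 separated members (28.6%, against 4.85% of all features) were the membrane subunit Cyba with 1.86 and the proton channel Hvcn1 with 1.72.

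Genes of monocytes and of the basophil, mast cell and eosinophil lines lay higher in GMP by their medians. Of 20 monocyte and macrophage genes tested, 15 were above 0 and 6 (30%) were separated, all with GMP higher, against 4.85% of all features. F13a1, the coagulation factor XIII A chain of monocytes, read 3.42 and 1.54 in LSK and 8.60 and 6.45 in GMP. Its difference was 5.04 (4.10 without the weak array). Ms4a6c had 3.50, and the chemokine receptor genes Ccr2 and Cx3cr1 had 3.13 and 2.79. Both GMP arrays lay above both LSK arrays for all 4 genes. Of 21 genes of mast cells, basophils and eosinophils, 16 were above 0 and 8 (38.1%) were separated with GMP higher, against 4.85% of all features. The median of the 21 was 2.07 (1.12 without the weak array, 2.60 in wild type). Cpa3, the mast cell carboxypeptidase, read −0.58 and −3.03 in LSK and 3.59 and 3.90 in GMP, a difference of 5.55. Fcer1a, the alpha chain of the high-affinity IgE receptor, read −1.69 and −2.90 in LSK and 4.49 and 1.84 in GMP. For both genes the weak array gave the lowest reading, and neither was well above background there. Without that array the difference was 4.33 for Cpa3 and 4.86 for Fcer1a, beside 5.46 for Fcer1a with it. In bulk samples a smaller number of cells of a type and less RNA in each such cell cannot be told apart.

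Stem cell genes lay lower in GMP for some regulators and not for others. Hlf, a leucine zipper factor of stem cells, read 3.08 and 5.13 in LSK and −0.41 and 0.28 in GMP, a difference of −4.17 (SE 0.78, limma adjusted p = 0.14) beside −4.53 in wild type. Prdm16, a stem cell maintenance factor, had −3.40, but one GMP array read 0.24 and the other −3.62. Meis1, a cofactor of Hox proteins, read 5.52 and 3.71 in LSK and 4.37 and 2.50 in GMP, and its groups overlapped, with a difference of −1.18 (−2.09 without the weak array) beside −4.16 in wild type. Gata2, a stem and mast cell factor, overlapped as well, with 0.50, and Mecom had 0.21 at its brighter probe and −3.57 at its dimmer one. Over the 20 stem and progenitor transcription factors the median was −0.42 (−0.83 without the weak array) beside −2.06 in wild type, and 2 of 20 (10%) were separated with GMP lower, against 4.95% of all features. That median turned positive under median scaling (0.19) and normexp correction (0.04).

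Some surface receptors of stem and endothelial cells lay lower in GMP. Robo4, a guidance receptor of stem cells and endothelium, read 3.26 and 1.42 in LSK and −1.24 and −3.63 in GMP, a difference of −4.78. Esam, an adhesion molecule, had −3.94, and Procr, the endothelial protein C receptor, −2.93. Each of these 3 had both LSK arrays above both GMP arrays. Flt3, the receptor that marks multipotent and lymphoid-primed progenitors, read 4.84 and 1.77 in LSK and 0.06 and 1.44 in GMP, so the weak array lay near the GMP arrays, and the difference moved from −2.56 to −4.09 without it. Of the 27 receptors tested, 5 (18.5%) were separated with GMP lower, against 4.95% of all features. The median of the 27 was −0.41, with −1.21 without the weak array and −2.48 in wild type, but it turned to 0.20 under median scaling.

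Of the 33 Hox genes listed, 19 passed the filter, 16 of these were below 0 and 5 (26.3%) were separated with GMP lower, against 4.95% of all features. Among the separated ones, Hoxa10, Hoxb2 and Hoxb5 were not well above background on either deficient GMP array and passed the filter through LSK arrays. Hoxa9, a partner of Meis1, read −0.10 and −0.17 in LSK and −2.56 and −1.20 in GMP. Hoxb5, a stem cell marker, was at least 3.34-fold lower in GMP, from LSK replicate 1 alone, since it was not well above background on the weak array. The median of the tested Hox genes was −1.17 (−0.62 without the weak array, −0.04 under quantile normalization) beside −1.91 in wild type. For comparison with Mpo, Elane, Ctsg and Ms4a3, the promoters of Hoxa10 and Robo4 are given with the same motifs in capitals. For Hoxa10 the more downstream of its 2 listed starts was used.
Hoxa10, chr6:52234890-52235189, minus strand: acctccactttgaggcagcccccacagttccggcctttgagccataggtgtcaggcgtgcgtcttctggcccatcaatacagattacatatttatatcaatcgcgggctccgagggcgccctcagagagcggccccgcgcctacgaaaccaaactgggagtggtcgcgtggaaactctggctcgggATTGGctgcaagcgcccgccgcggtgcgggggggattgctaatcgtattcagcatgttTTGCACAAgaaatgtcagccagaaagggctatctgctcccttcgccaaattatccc
Robo4, chr9:37401722-37402021, plus strand: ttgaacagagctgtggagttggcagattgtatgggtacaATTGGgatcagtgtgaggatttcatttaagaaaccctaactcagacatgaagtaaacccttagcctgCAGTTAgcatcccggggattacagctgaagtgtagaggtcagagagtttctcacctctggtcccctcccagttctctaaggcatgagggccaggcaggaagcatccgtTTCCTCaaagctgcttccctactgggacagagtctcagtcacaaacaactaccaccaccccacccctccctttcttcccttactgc
Hoxa10 held TTGCNNAA and the CCAAT box, while Robo4 held GAGGAA and TAACNG on the opposite strand and the CCAAT box. The letters shared by Mpo, Elane, Ctsg and Ms4a3 thus also occur at a gene with the opposite difference. The CCAAT box occurs in 37.4% of all windows.

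Lymphoid genes lay lower in GMP as a group. Of 24 lymphoid priming genes 21 were below 0 and 4 (16.7%) were separated with GMP lower, against 4.95% of all features. The median of the 24 was −0.81 (−1.19 without the weak array, −1.53 in wild type). Besides Dntt, the separated genes included Ccr9, the thymus homing receptor, which read −0.51 and −2.73 in LSK and −4.27 and −4.23 in GMP. Ccr9 was not well above background on the weak array or on GMP replicate 1. Its difference was −2.63, or −3.74 without the weak array. Of 8 GIMAP genes, which encode GTPases of lymphocytes and stem cells, 7 were below 0, with a median of −1.95 (−1.57 with 1 member at its bound) beside −4.96 in wild type. Gimap8 read 2.66 and 0.74 in LSK and 0.19 and −3.47 in GMP, so 1 GMP array came close to LSK, and its difference was −3.34 against −9.62 in wild type. Gimap7, not well above background on the weak array, was at least 2.67-fold lower against LSK replicate 1. Gata3, a T cell and stem cell factor, read 0.11 and −0.04 in LSK and −2.98 and −4.35 in GMP, a difference of −3.70. The B lineage list had 0 of 21 members separated and the T and NK list 3 of 22 (13.6%), all 3 with GMP lower, against 4.95% of all features.

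Markers of megakaryocytes leaned lower in GMP, with 15 of 25 below 0. Their median was −0.59 (−0.29 without the weak array, −1.41 in wild type), but it turned to 0.01 under median scaling. Mmrn1, a platelet alpha granule protein, read 1.55 and −0.36 in LSK and −2.57 and −3.03 in GMP. It was among 3 of 25 megakaryocyte genes separated with GMP lower (12%, against 4.95% of all features), and 0 were separated with GMP higher. Pf4, platelet factor 4, pointed the other way, at 1.64 and −0.05 in LSK and 4.13 and 2.41 in GMP, but was not separated. Its difference was 2.47 (1.63 without the weak array), whereas in wild type it was −2.18.

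The transcripts of the sort antigens did not follow the gates closely. Ly6a, which encodes Sca1, read 0.37 and −1.07 in LSK and −0.17 and 2.24 in GMP, and it was not well above background on the weak array. Its mean was not higher in the Sca1-positive population, with a difference of 1.39, or 0.67 without the weak array, and its wild-type difference was 0.16. Kit read 4.19 and 1.69 in LSK and 3.49 and 3.41 in GMP. Cd34 read 6.88 and 6.52 in LSK and 7.85 and 6.61 in GMP. These 3 overlapped between the populations, and under quantile normalization the differences of Kit and Cd34 changed sign, to −0.48 and −0.83. Fcgr3, which encodes CD16, read −0.74 and −2.96 in LSK and −0.76 and 2.20 in GMP, and 1 GMP array was level with LSK. Fcgr2b, which encodes CD32, read −0.14 and −2.51 in LSK and 1.72 and 1.77 in GMP and was separated, with a difference of 3.07 that was 1.89 without the weak array, where it was not well above background. Ackr1 itself read −0.70 and −0.85 in LSK and −0.07 and −0.16 in GMP, a difference of 0.66 (SE 0.61, limma adjusted p = 0.596). It was not well above background on the weak array, and the difference was 0.58 without that array. In wild type it read −0.66 and −1.05 in LSK and −0.50 and −0.45 in GMP, so the deficient arrays did not read lower as a group. The labels do not place the probe relative to the disrupted part, so its level checks nothing about genotype.

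Genes of mature neutrophils and red cells were high in both deficient populations. Camp, the cathelicidin precursor of secondary granules, read 7.52 and 8.39 in LSK and 10.25 and 7.48 in GMP, and Retnlg read 5.18 and 5.32 in LSK and 5.74 and 4.89 in GMP. On the wild-type arrays Camp lay between −2.97 and 0.09 and Retnlg between −7.11 and −5.27. Averaged over the 5 neutrophil markers Ltf, Camp, Ngp, Mmp8 and Retnlg, the level was 5.51 and 6.16 in deficient LSK and 5.71 and 5.10 in deficient GMP, against −4.74 to −3.68 on the wild-type arrays. All 5 were well above background on all 4 deficient arrays. Between the deficient populations 0 of 18 secondary and tertiary granule genes were separated, their median was 0.14, and it turned negative without the weak array (−0.38) and under quantile normalization (−0.36). Differences of single members were 2.27 for Anxa1 and 1.10 for S100a8, and −1.73 for Ngp and −1.08 for Ltf, with overlapping arrays for all but S100a8, whose difference turned to −0.11 under quantile normalization. Without the weak array Anxa1 had 0.99 and Ngp −0.098.

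Slc4a1, the band 3 anion exchanger of red cells, read 4.64 and 4.98 in deficient LSK and 3.83 and 3.76 in deficient GMP, and on the wild-type arrays it lay between −1.41 and −0.91. Hba-a2, an alpha globin gene with near-identical copies that its probe may not tell apart, read 10.01 and 12.93 in LSK and 10.95 and 9.54 in GMP. Of 35 erythroid genes tested, the 1 separated member (2.86%, against 4.95% of all features) was Ermap, a red-cell adhesion molecule. It read 3.94 and 6.83 in LSK and 2.03 and 0.56 in GMP, a difference of −4.09 that was −2.64 without the weak array. Among B cell markers, 3 of 4 were well above background on LSK replicate 1 and on both GMP arrays and 1 of 4 on the weak array, and Pax5 was above background on none. Of the 3 T and NK cell markers, 1, 3, 2 and 1 were above background in the order LSK 1, LSK 2, GMP 1, GMP 2, and of the 3 stroma markers 2, 0, 3 and 1. Markers of the sorted cells averaged 2.04 and 1.34 in LSK and 0.30 and 0.17 in GMP for the 8 LSK genes, and 3.28 and 2.95 in LSK and 5.97 and 6.46 in GMP for the 8 GMP genes, so each set averaged higher in the population it marks. The part of neutrophil and red-cell RNA in the differences of other genes was not tested.

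In 3 housekeeping groups every tested member read higher in deficient GMP. The separated shares of these groups stand beside 4.85% of all features with GMP higher. All 48 ribosomal protein genes tested were above 0, with a median of 1.50 (1.40 without the weak array) beside 0.28 in wild type, and 16 (33.3%) were separated with GMP higher, where 0 were in wild type. Their mean level was 7.30 and 7.12 on the deficient LSK arrays, 8.90 and 8.63 on the deficient GMP arrays, 8.36 and 8.35 in wild-type LSK and 8.81 and 8.46 in wild-type GMP. The deficient LSK arrays were thus the low ones of the 8, the weak array and its stronger replicate alike. Rpl27 read 5.74 and 5.57 in LSK and 9.27 and 8.30 in GMP, and Rps28 read 6.64 and 6.51 in LSK and 9.53 and 9.21 in GMP.

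Subunits of the respiratory chain and ATP synthase showed the same layout. All 49 were above 0, 32 (65.3%) were separated with GMP higher, and the median was 2.33 (2.14 without the weak array) beside 1.10 in wild type. Ndufa1, a complex I subunit, read 3.33 and 2.52 in LSK and 7.90 and 5.82 in GMP, and Ndufa4 had 3.74. All 32 genes of protein folding and secretion in the endoplasmic reticulum were above 0, 19 (59.4%) were separated, and the median was 2.65 (2.27 without the weak array, 1.86 in wild type). Ostc, a subunit of the oligosaccharyltransferase, had 3.97 (2.46 without the weak array) and the chaperone cofactor Sdf2l1 3.94. Under quantile normalization, which moved the median of all features from −0.07 to 0.18, the medians of the ribosomal, respiratory and folding lists were 0.51, 1.25 and 1.72.

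**Figure D2:**
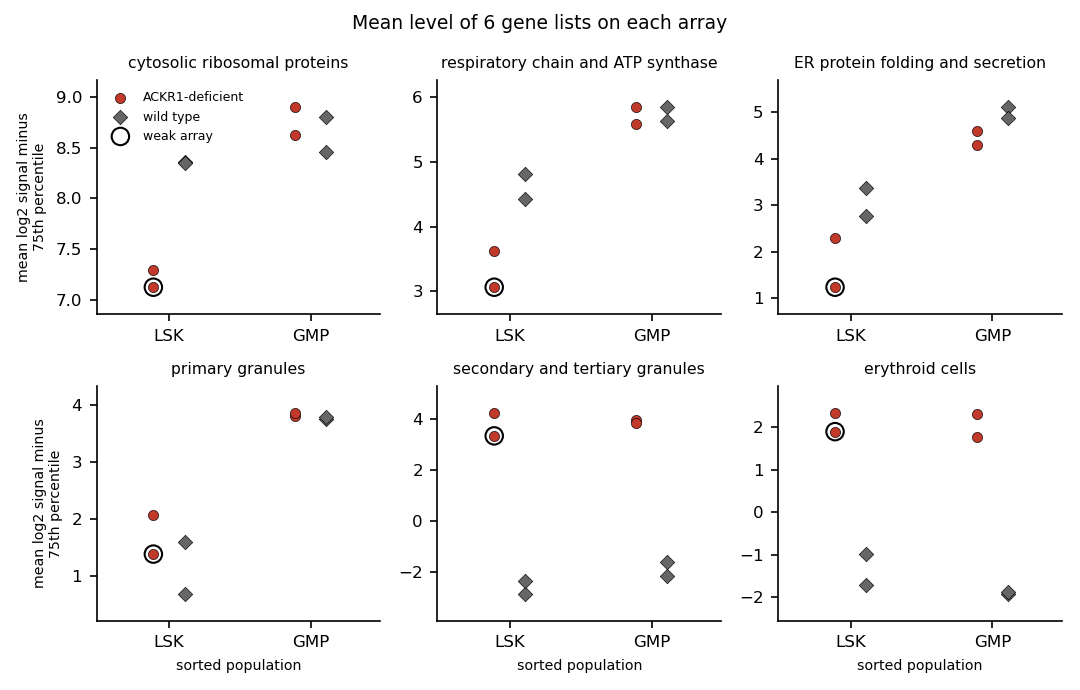
Mean log2 signal minus the array's 75th percentile (vertical axis) over the tested members of 6 gene lists, with 1 point per array; red circles are deficient, grey diamonds wild type, and the ringed circle is the weak array. Ribosomal, respiratory and folding genes are lowest on the 2 deficient LSK arrays, while secondary granule and erythroid genes are high on all 4 deficient arrays and low on all 4 wild-type arrays.

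The medians of DNA replication and mitosis genes were also above 0 and were smaller without the weak array. Of 34 DNA replication genes 32 were above 0, with a median of 1.76 that was 0.94 without the weak array. Only 2 (5.88%) were separated with GMP higher, close to the 4.85% of all features. Prim2, a primase subunit, read 2.21 and −0.99 in LSK and 3.92 and 2.86 in GMP, and Gins4, a helicase subunit, had 2.74, but neither was separated. Without the weak array, where both were not well above background, Prim2 had 1.18 and Gins4 0.78. Of 29 mitosis genes 28 were above 0 and 7 (24.1%) were separated with GMP higher, against 4.85% of all features. The median of the 29 was 1.31, and it was 0.41 without the weak array. Mad2l1, a spindle checkpoint gene, had 3.49 (2.15 without the weak array), and Cdk1 had 3.08 at its brightest probe and −2.10 at 1 of its other 2. Cdkn1c, which encodes the stem cell quiescence factor p57, read 0.03 and −0.86 in LSK and −3.27 and −4.03 in GMP. On the weak array it was not well above background, and its difference was −3.23, or −3.68 without that array. It was the 1 separated gene (5.88%, against 4.95% of all features) among 17 D cyclins, CDK4/6 and CDK inhibitors. The median of these 17, 0.52, turned to −0.17 without the weak array and −0.06 without GMP replicate 2. Of 22 glycolysis genes 3 (13.6%) were separated, among them Pgam1 with 2.85 and Ldha with 2.78, and of 24 cholesterol genes 2 (8.33%), Fdps with 2.79 and Ebp with 2.66. All of these had GMP higher, against 4.85% of all features.

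Interferon and other immune genes had members separated in each direction. Ifi202b, an interferon-inducible gene of the Ifi200 cluster, read 0.17 and −1.72 in LSK and 5.17 and 2.39 in GMP, a difference of 4.55, while all 4 wild-type arrays lay between −5.50 and −4.34. Gbp3, a guanylate-binding protein, had 3.12. Ifi44 read 1.29 and 1.15 in LSK and −1.28 and −3.40 in GMP, and Iigp1 had −2.23. Of 33 interferon-stimulated genes 2 were separated in each direction (6.06% each), close to the shares of all features (4.85% higher, 4.95% lower). The list had a median of −0.31 (−0.82 without the weak array, −1.65 in wild type) that turned positive under median scaling (0.29) and normexp correction (0.01). B2m, the light chain of MHC class I, read 5.70 and 4.32 in LSK and 6.83 and 6.95 in GMP, a difference of 1.88 (1.19 without the weak array), and the immunoproteasome gene Psmb10 had 1.88; the class I list had a median of 1.27 that was −0.51 without the weak array. Nr4a1, an immediate early nuclear receptor, read 5.81 and 3.79 in LSK and 2.33 and 1.81 in GMP. Of 22 chemokines 2 were separated in each direction (9.09% each, against 4.85% and 4.95% of all features), among them Ccl9 with 2.72 and Cx3cl1, at least 6.11-fold lower. Nes, an intermediate filament gene listed with stroma, read 0.23 and 2.04 in LSK and −1.86 and −2.92 in GMP, and Dcn, decorin, not well above background on the weak array, was at least 2.38-fold lower against LSK replicate 1.

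**Figure D3:**
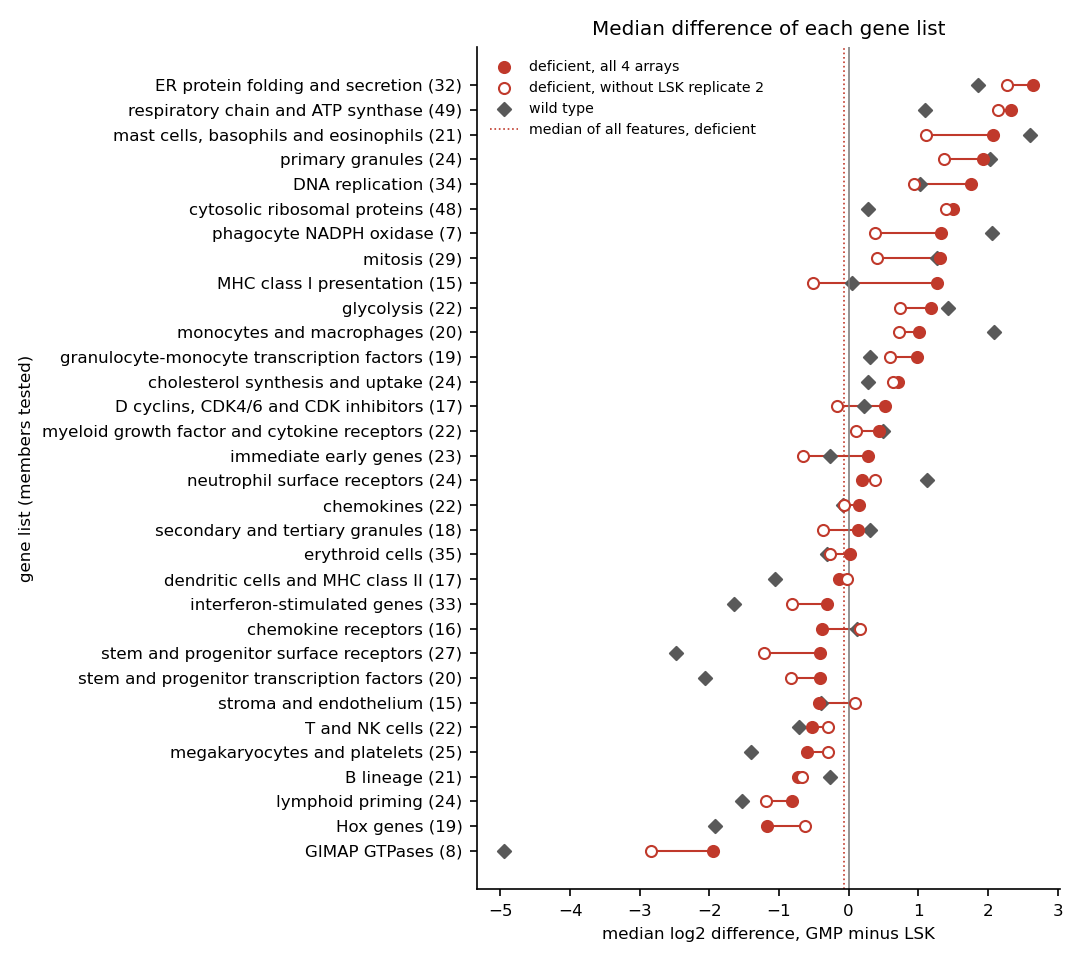
Median log2 difference, GMP minus LSK (horizontal axis), of 32 gene lists, with the number of members tested in brackets. Filled red points are the 4 deficient arrays, open points leave out the weak LSK array and diamonds are wild type. The dotted line is the median of all features in deficient marrow (−0.07), while features with a symbol, as in the lists, had a median of 0.27. Among the filled points the folding and respiratory lists lie farthest right and the GIMAP genes farthest left.

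Whether deficient marrow shows the population difference of wild-type marrow was asked with the wild-type arrays, which share no array with the deficient comparison, although the fit pools the spread over all 8. In wild type 141 features were called higher in GMP (0.502%) and 381 lower (1.36%). Of the 141, 135 (95.7%) had the same sign in deficient marrow and 75 (53.2%) were separated there; of the 381, 376 (98.7%) had the same sign and 256 (67.2%) were separated. None of the 522 was separated in the opposite direction. Over all features the same-sign share was 67%, and 68.1% without the weak array. Without that array 132 of the 141 and 377 of the 381 had the same sign. Over all features, separation occurred in both genotypes with GMP higher for 354 (1.26%) and with GMP lower for 519 (1.85%), and in opposite directions for 0.

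The called features had smaller differences in deficient marrow. The median of the 141 was 4.58 in wild type and 2.17 in deficient marrow, and that of the 381 was −4.54 and −2.59. Since they were picked for their size in wild type, those wild-type values overstate it. The medians on each array follow. For the genes higher in GMP, wild-type LSK arrays had medians of −3.29 and −2.90 and deficient LSK arrays −0.74 and −0.91, while GMP arrays lay at 1.75 and 1.73 in wild type and 1.63 and 1.34 in deficient marrow. For the genes lower in GMP, wild-type GMP arrays lay at −5.28 and −5.44 and deficient GMP arrays at −3.37 and −4.03, while LSK arrays lay at −0.46 and −0.28 in wild type and −0.78 and −1.57 in deficient marrow. On the weak array 74 of the 141 and 239 of the 381 were not well above background.

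The test of the difference itself called no gene. The interaction of population and genotype gave 0 features at an adjusted p under 0.05 (limma, smallest adjusted p = 0.632), and 695 (2.48%) at an unadjusted p under 0.05. Among the genes with the smallest p, singled out after their values were seen, Hp, which encodes haptoglobin, read 5.35 and 5.41 in LSK and 6.93 and 6.58 in GMP of deficient marrow, against −1.68 and 0.20 in LSK and 6.90 and 6.83 in GMP of wild-type marrow. C3, the complement component, had a difference of 0.87 in deficient marrow, which turned to −0.38 under quantile normalization, and 6.47 in wild-type marrow. Jchain, the immunoglobulin joining chain, had −1.82 (−3.06 without the weak array) and −10.03. For Hp the deficient LSK arrays lay above the wild-type LSK arrays, and none of the 3 passed (adjusted p = 0.632 each).

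**Figure D4:**
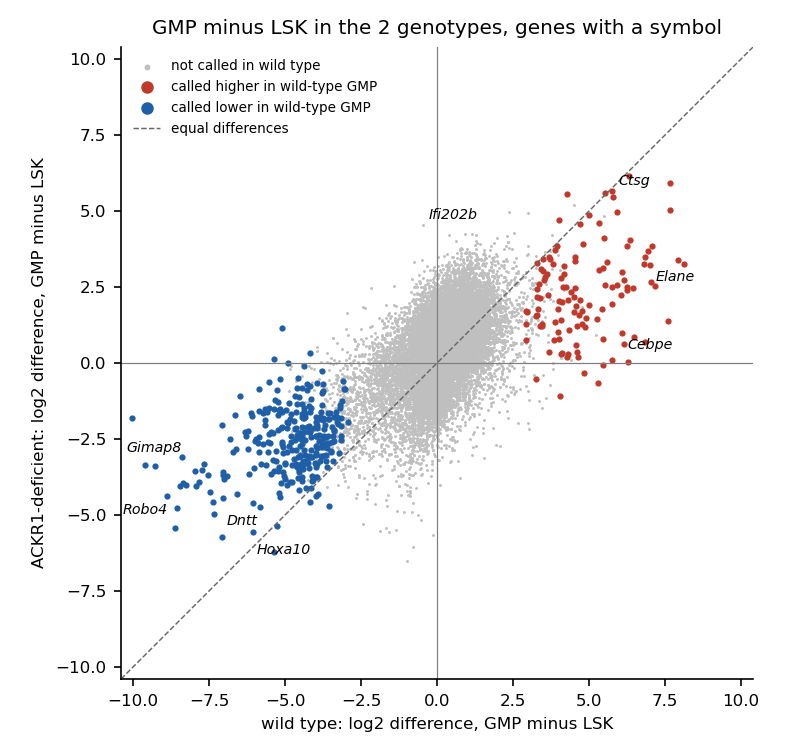
Log2 difference, GMP minus LSK, in wild-type marrow (horizontal axis) and in ACKR1-deficient marrow (vertical axis) for 15852 genes with a symbol, 1 point per gene. Coloured points were called in wild type, and the dashed line marks equal differences; most coloured points keep their sign but lie nearer to 0 on the vertical axis, with Cebpe at 6.08 and 0.97, while Ctsg lies close to the dashed line.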

How the data were processed

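The 8 arrays were 1-colour Agilent arrays labelled with Cy3. Per the file headers, the deposited intensity of each spot is the processed signal of Agilent Feature Extraction 10.7.3.1, background-subtracted by that software; the headers name an mm9 design. The submitters' series table holds log2 values deposited by the authors; it matched the values used here at r = 0.999687 to 0.999965 per array, differs in centring, and served as an alternative. Here log2 of the processed signal was taken and each array's 75th percentile over its 59305 non-control spots was subtracted. Outlier spots (104 to 139 per array) were left out, and spots of one probe were averaged. A probe was kept where some group had it well above background on each of its arrays, which held for 39098 of 55681 probes, and the brightest probe stood for its gene, giving 28078 features, 15852 of them with a symbol. The number of arrays limits the precision.

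The functions lmFit, contrasts.fit and eBayes of limma 3.58.1 (R 4.3.3) fitted the means of the 4 groups over all 8 arrays, with Benjamini-Hochberg adjustment over all features and a threshold of 0.05. The text names the 12 genes of smallest p in each direction, the members of largest size in each list, a set of sort antigens and textbook regulators, and marker genes; Hp, C3 and Jchain were added after their values were seen. Members and lists were chosen with earlier results of these data known. The 16 alternatives covered scaling, background correction, probe filters, left-out arrays, array weights and blocks. Figures were drawn with matplotlib 3.10.9 in Python 3.11.15. Promoter sequences came from RefSeq (GRCm38.p6).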

Additional observations from a re-analysis of the deposited data

How the results depend on the processing

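Of the 16 alternatives, 3 made calls: normexp background correction (787 higher, 61 lower), the 4 deficient arrays alone (19 and 111) and leaving out LSK replicate 1. With each array left out in turn, calls ranged from 0 to 2144 higher and from 0 to 2112 lower. The cause was not tested. The interaction had 0 calls in each of the 15 alternatives in which it could be fitted. Same-numbered replicates share only a number, with a correlation of their deviations of −0.0524 over 2 pairs, and the fit with a replicate block gave 0 higher and 0 lower (2704 and 1976 at an unadjusted p under 0.05). Of 32 list medians, 13 kept their sign in every alternative and 19 turned in at least 1. Of 105 named genes, 91 kept their sign in every alternative run and 14 did not. Under quantile normalization Kit was −0.48, Cd34 −0.83, Cebpe −0.058, Spi1 0.76, S100a8 −0.11, C3 −0.38, Camp −0.16 and Retnlg −1.17. Spi1 was 0.51 under median scaling and 0.21 after normexp correction, where Mecom was −0.43, and Mecom was −1.68 as the mean of its probes. Without both LSK replicate 2 and GMP replicate 1, Kit was −0.78, Cd34 −0.27, Gfi1 −0.23, Spi1 2.76, Mecom −0.17, Ngp 0.31, Anxa1 −0.61, Camp −0.038 and Retnlg −0.28. With each array left out in turn, Kit ranged from −0.74 to 1.76, Cd34 from −0.088 to 1.15, Spi1 from −3.02 to 2.83, Mecom from −3e-04 to 0.41, Gata2 from −0.26 to 1.25, Hba-a2 from −2.68 to 0.24, Camp from −0.47 to 2.30 and Retnlg from −0.35 to 0.49. Signal over background limits deficient LSK replicate 2 most, since 46.8% of features were not well above background there.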
